A study of Homo sapiens with 15 samples.

Results

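The 10 genes described here encode Wnt ligands, proteins that modulate Wnt signalling and genes used to read it out: WNT7A, WNT7B, RSPO3, LGR4, SFRP4, DKK1, DKK3, AXIN2, DACT2 and TLE4. They were chosen by name, with earlier results of these data known, and matched by their symbols in the count files. They are 10 of the 43388 gene symbols counted in each library. RNA-seq was done on A549, a line of human lung adenocarcinoma cells with features of alveolar epithelium. The gas over the cultures held 95% oxygen (hyperoxia) or 21% (normoxia) for 72 hours. Some cultures first received all-trans retinoic acid (ATRA) at 1e-05 mM, or the ethanol that served as its vehicle, for 24 hours. The question is how high oxygen changes these cells and how ATRA given beforehand alters that.

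Of 15 libraries, 14 fall into 6 groups. Hyperoxia with vehicle and normoxia with vehicle have 2 libraries each, and hyperoxia with ATRA and normoxia with ATRA have 3 each. Another 2 libraries in hyperoxia and 2 in normoxia received neither ATRA nor vehicle. The genotype of all of them is given as wild type. Another library carries labels that contradict each other and entered no comparison. Nothing in the labels says whether the libraries of a group come from separate cultures, so the p-values below measure the spread between these samples.

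Wnt ligands are secreted proteins that bind Frizzled receptors together with the co-receptors LRP5 and LRP6. Binding stops the destruction of beta-catenin, which then enters the nucleus and, with TCF/LEF factors, switches on genes such as AXIN2. R-spondins raise the signal by keeping Frizzled receptors at the cell surface, while secreted inhibitors of the SFRP and DKK families lower it. In the lung, the pathway takes part in the growth of the airways before birth and in the repair of the alveolar epithelium after injury.

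The depth was low for RNA-seq, with 2642377 to 5605072 counts on genes per library. At that depth 3 counts correspond to 0.535 to 1.14 CPM. CPM is the usual unit for counts scaled to a common library size, here with the TMM factors of edgeR. Such limits, and the intervals given further on, cover counting error only. A library stood apart from the rest: replicate 1 of hyperoxia without vehicle had a count on 12657 genes, while the other 13 assigned libraries had a count on 16465 to 20108. Among genes that averaged 20 to 50 counts in the other libraries, 721 of 2338 (30.8%) had no count in it. In the other 13 libraries the same share was at most 2.3%. That highest share belongs to replicate 1 of hyperoxia with ATRA, which was the deepest library (5605072 counts) and had a count on 16466 genes. For the 9 genes tested, the oxygen comparison without vehicle is given with and without the library that stood apart.

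**Figure D1:**
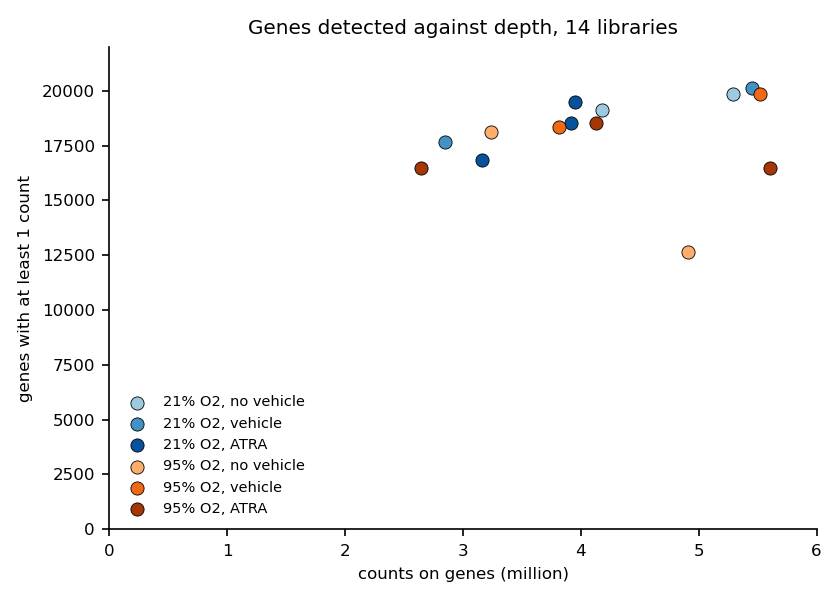
Number of genes with at least 1 count against the counts on genes (x axis), 1 point for each of 14 libraries, coloured by group. Replicate 1 of hyperoxia without vehicle lies at 12657 genes, under the 13 others, which lie between 16465 and 20108.

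The plot of genes detected against depth shows that this library is not the shallowest of the set. It had 4910396 counts on genes, and the shallowest library, with 2642377 counts, had a count on 16465 genes.

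The labels were checked against genes known to respond to each treatment. CYP26B1, a retinoic acid target, averaged 622 ± 236 CPM (mean and SD) in the 3 libraries of hyperoxia with ATRA, while the 2 libraries of hyperoxia with vehicle averaged 35.9 ± 0.979 CPM. In normoxia the same gene averaged 692 ± 166 CPM in the 3 ATRA libraries, while the 2 vehicle libraries averaged 52.2 ± 15.3 CPM. CDKN1A, a p53 target, averaged 1028 ± 50.3 CPM in hyperoxia with vehicle and 103 ± 8.91 CPM in normoxia with vehicle (SD, n = 2 each). In these 2 genes the treated libraries all lay above the untreated ones. Of the 5 genes read for ATRA, STRA6, DHRS3 and CYP26B1 were called higher with ATRA at both oxygen levels. STRA6 was also called higher with oxygen in all 3 comparisons, and averaged 182 CPM in hyperoxia without vehicle and 189.9 CPM in normoxia with ATRA, so it does not separate those groups. RARB was called in normoxia (adjusted p = 0.0469) and not in hyperoxia (0.0862). CYP26A1, another known target, was called at neither level, with log2 fold changes of 0.60 in normoxia and 0.40 in hyperoxia and libraries that overlapped. Of the 4 genes read for oxygen, CDKN1A, MDM2 and GDF15 were called higher in hyperoxia and MKI67, a gene of dividing cells, lower, with vehicle, with ATRA and without vehicle.

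Markers of cell types were read in the same libraries. The summed level of 5 epithelial markers was 1673 and 1778 CPM in hyperoxia with vehicle, and 5903 and 6904 CPM in normoxia with vehicle. With ATRA it was 4143, 3350.1 and 2775 CPM in hyperoxia, and 9665, 6916 and 8695 CPM in normoxia. Most of this sum came from the keratins KRT8 and KRT18, which averaged 3079 and 1698 CPM over the 14 libraries. All 5 markers had counts, but EPCAM averaged only 2.1 CPM, with a lowest count of 0. Of 8 markers of alveolar type II cells, the surfactant genes SFTPA1 and SFTPA2 had no count in any of the 14 libraries, SFTPC had 3 counts in all, and most of the sum came from ABCA3. That sum was 50.8 to 93.9 CPM in the 7 normoxia libraries and 103 to 155 CPM in the 7 hyperoxia libraries. The 5 leukocyte markers summed to 20.7 to 48.2 CPM in normoxia and 60.2 to 101 CPM in hyperoxia, most of it CD68, while CD3E had no count and PTPRC had 1. These 2 sums thus rose with oxygen, while the epithelial sum, most of it KRT8 and KRT18, fell. Fibroblast markers summed to at most 13.3 CPM, with DCN at 0. Without ATRA their sum was 6.31 to 13.3 CPM in normoxia and 0 to 2.11 CPM in hyperoxia, and with ATRA the oxygen levels overlapped. Endothelial markers summed to at most 6.33 CPM, with VWF at 0. With ATRA their sum was 1.88 to 6.33 CPM in normoxia and 0 in hyperoxia, and in the groups without ATRA it was at most 0.971 CPM. Adipocyte markers summed to at most 6.04 CPM, with ADIPOQ at 0. Since RNA came from whole cultures, fewer cells of a type and less RNA per cell cannot be told apart. The part of these changes in the results that follow was not tested.

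Levels of different genes were compared only per kilobase of the MANE Select transcript. In normoxia with vehicle, DKK1 was the highest at 75.4 ± 4.09 CPM per kb (SD, n = 2), followed by WNT7B at 66.3 ± 2.1, LGR4 at 47 ± 2.21 and RSPO3 at 23.6 ± 0.431. Lower down came DKK3 at 9.75 ± 1.02, TLE4 at 5.24 ± 0.198, SFRP4 at 4.26 ± 1.87, AXIN2 at 1.44 ± 0.0557 and DACT2 at 0.419 ± 0.427 CPM per kb. WNT7A was at 0. In that order only TLE4 and SFRP4 had libraries whose levels overlapped.

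In hyperoxia with vehicle, DKK1 was again the highest at 129.6 ± 9.87 CPM per kb (SD, n = 2). RSPO3 came next at 48.1 ± 3.13, and WNT7B at 29.5 ± 0.928 overlapped with TLE4 at 28.6 ± 4.59. LGR4 had moved below them, to 8.98 ± 0.149 CPM per kb, followed by DKK3 at 6.36 ± 1.31, SFRP4 at 1.92 ± 1.28 and AXIN2 at 0.722 ± 0.147. The lowest levels, DACT2 at 0.0439 ± 0.0621 and WNT7A at 0, overlapped. With ATRA in normoxia, WNT7B led at 82.9 ± 11.8 CPM per kb (SD, n = 3). The pairs DKK1 and LGR4, SFRP4 and RSPO3, and DKK3 and TLE4 overlapped there as neighbours. With ATRA in hyperoxia, DKK1 at 74 ± 21.5 and WNT7B at 73.8 ± 14.1 CPM per kb overlapped at the top. TLE4, LGR4, SFRP4 and DKK3 followed RSPO3, each overlapping with the next.

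**Figure D2:**
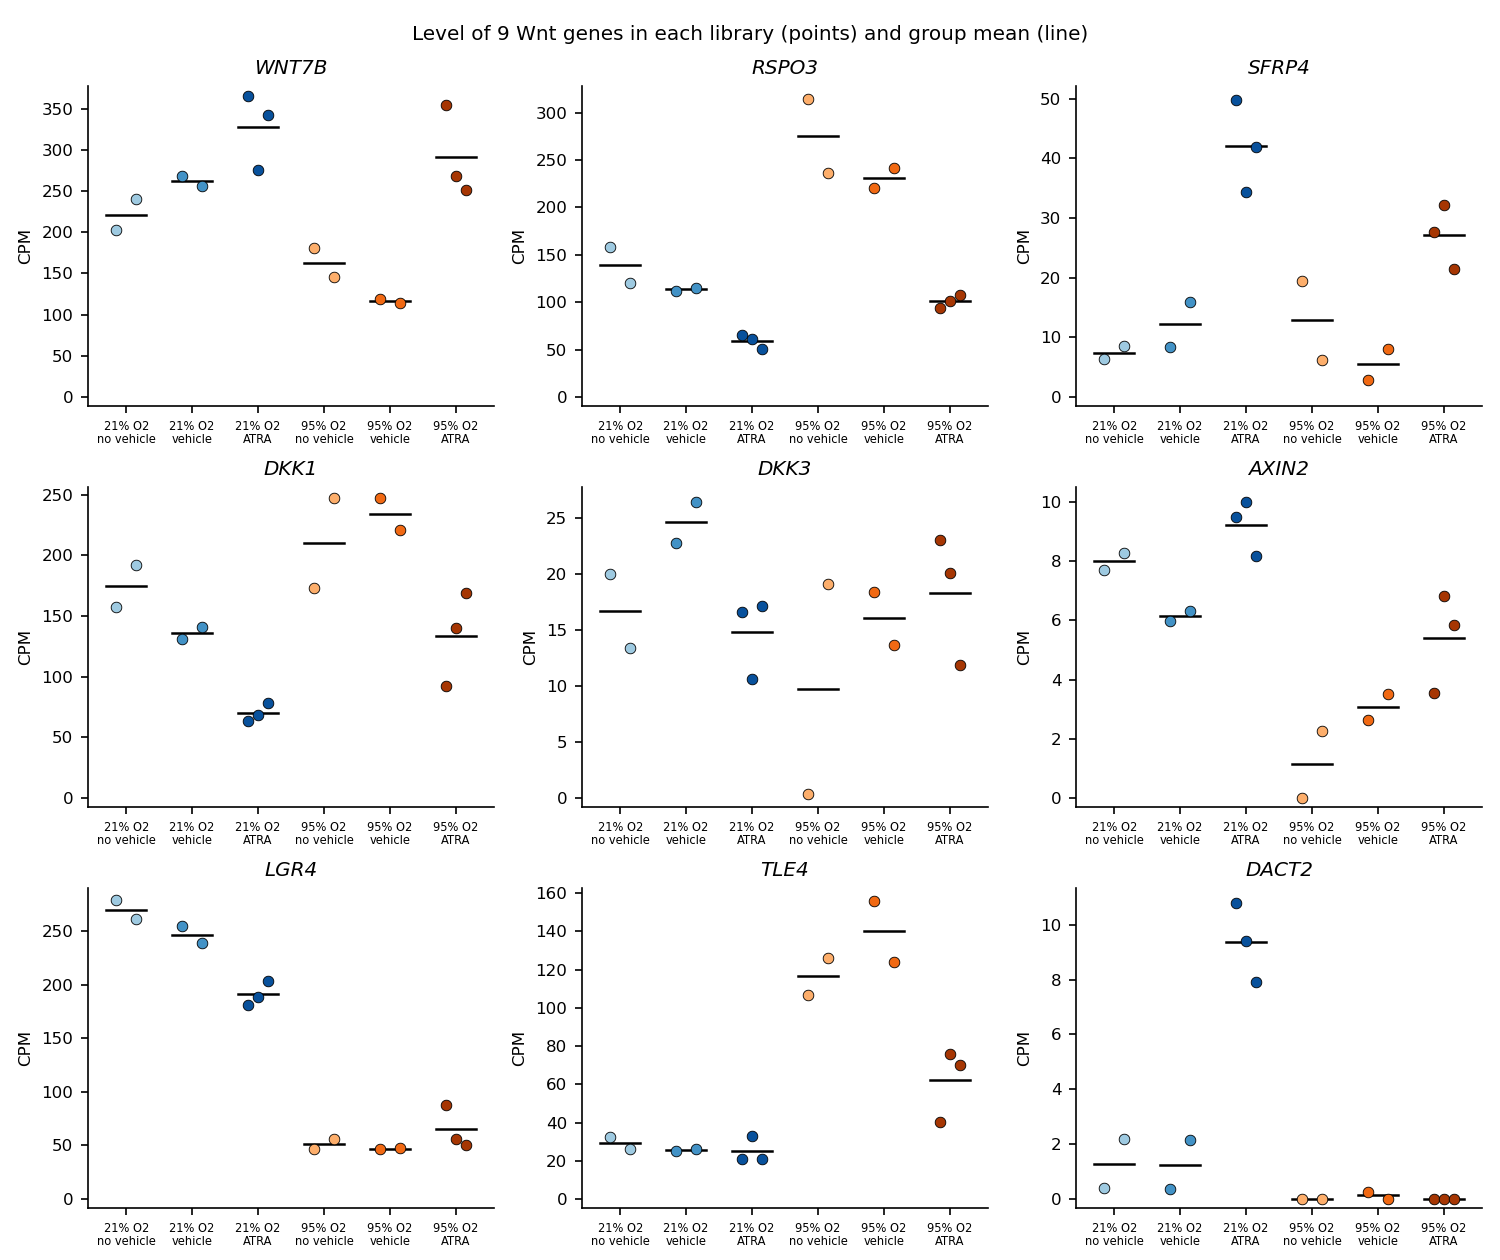
Level (CPM) of 9 of the 10 genes in each of 14 libraries (points) with the mean of each group (line); WNT7A, with 1 count in all libraries, is not shown. TLE4 lies between 20.9 and 33.2 CPM in all normoxia libraries and between 40.5 and 156 CPM in all hyperoxia libraries.

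The plot of levels by library shows the pattern of each gene, with normoxia in blue and hyperoxia in orange. LGR4 and TLE4 separate by oxygen whatever else was added, in opposite directions. WNT7B and SFRP4 have their highest means in the ATRA groups.

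Differences between groups were tested with edgeR over the 14957 genes that passed a filter on low counts, and a gene was called at an adjusted p under 0.05. Of the 10 genes 9 passed the filter. WNT7A did not. With vehicle, high oxygen raised 3 of the 9 (RSPO3, DKK1 and TLE4), where 8.68% of all genes tested were called higher. It lowered 2 of them (LGR4 and WNT7B), where 8.81% of all genes were called lower. In all, 2616 genes were called. Leaving out replicate 1 or 2 of hyperoxia with vehicle left 1433 or 1386 genes called, and leaving out replicate 1 or 2 of normoxia with vehicle left 1447 or 1523.

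Among ATRA libraries, high oxygen again raised 3 of the 9 (RSPO3, DKK1 and TLE4), against 11.4% of all genes called higher. It lowered 2 (LGR4 and DACT2), against 11.3% of all genes called lower. This comparison shares no library with the one among vehicle libraries.

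In hyperoxia, ATRA raised 2 of the 9 (SFRP4 and WNT7B), against 1.52% of all genes, and lowered 3 (RSPO3, DKK1 and TLE4), against 0.695%. In all, 331 genes were called, and 218 without replicate 1 of hyperoxia with ATRA. Without replicate 1 of hyperoxia with vehicle 83 genes and 2 of the 9 (RSPO3 and WNT7B) were called, and without replicate 2 of that group 102 genes and 4 of the 9. In normoxia, ATRA raised 1 of the 9 (SFRP4), against 0.816% of all genes, and lowered 2 (RSPO3 and DKK1), against 0.435%. Of 187 genes called there, 121 were left without replicate 1 of normoxia with ATRA, 56 without replicate 1 of normoxia with vehicle and 65 without replicate 2 of that group. In the first 2 of these fits RSPO3 alone of the 9 was called.

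The oxygen comparison with vehicle and the ATRA comparison in hyperoxia share the 2 libraries of hyperoxia with vehicle. The opposite signs of RSPO3, DKK1, TLE4 and WNT7B in them are given side by side and are not separate results. The comparison of oxygen among ATRA libraries and that of ATRA in normoxia do not use these libraries. They share the 3 libraries of normoxia with ATRA, so the opposite signs of RSPO3 and DKK1 in them are not separate results either. The comparison of ATRA in normoxia and that of oxygen with vehicle share the 2 libraries of normoxia with vehicle. The comparisons that use hyperoxia with ATRA share its 3 libraries.

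Whether the ATRA effect differs between the oxygen levels was tested as an interaction. edgeR called 0 of the 9, against 0.14% of all genes (21 genes in either direction). At an unadjusted p under 0.05 there were 3 of the 9 and 1078 of all genes. DESeq2 called 2 of the 10 (WNT7B and LGR4) and 103 genes. The count of 21 fell to 12 without replicate 1 of normoxia with ATRA and to 13 without its replicate 2. It was 4 or 11 without replicate 1 or 2 of hyperoxia with vehicle, and 7 or 4 without replicate 1 or 2 of normoxia with vehicle.

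**Figure D3:**
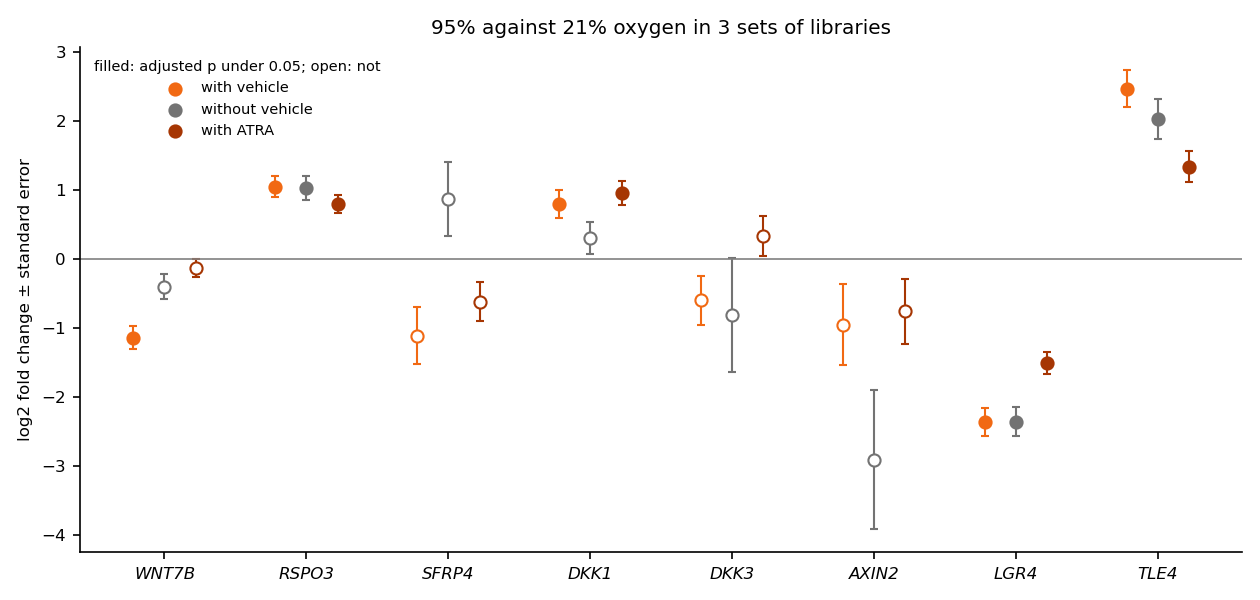
Log2 fold change (± standard error) of 8 genes in hyperoxia against normoxia, with vehicle, without vehicle and with ATRA; filled points have an adjusted p under 0.05. RSPO3, LGR4 and TLE4 are filled in all 3 sets, with LGR4 at -2.36 in those with and without vehicle.

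The plot of oxygen effects leaves out WNT7A, which was not tested, and DACT2, whose groups at 0 give no bounded fold change. Without vehicle, in a fit of 14 libraries and 15339 genes, high oxygen raised 2 of the 9 (RSPO3 and TLE4), against 7.57% of all genes. It lowered 1 (LGR4), against 7.58%. In all, 2324 genes were called, 969 without replicate 1 of normoxia and 1393 without its replicate 2. Without the library that stood apart 1733 genes were called, and the same 3 of the 9. When replicate 2 of hyperoxia was left out, so that the library that stood apart was the only one of its group, 7364 genes and 6 of the 9 were called. The median log2 fold change over all genes in this comparison was -0.10 with TMM scaling and -0.11 with RLE scaling, so the zero of this scale lies slightly above the median gene.

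The ligand WNT7A, on chromosome 3 of GRCh38.p14 from 13816258 to 13880071, had 1 count in all 14 libraries, in replicate 1 of normoxia with ATRA. Its level was not detectable at this depth in the other libraries.

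WNT7B, on chromosome 22 from 45920366 to 45977162, encodes a ligand made by the epithelium of the developing lung. It measured 119 and 114 CPM in hyperoxia with vehicle and 268 and 256 CPM in normoxia with vehicle. With ATRA it measured 355, 268 and 251 CPM in hyperoxia, and 365, 275 and 342 CPM in normoxia. The libraries of hyperoxia with vehicle were the lowest of these 10, while the ATRA libraries at the 2 oxygen levels overlapped. With vehicle, oxygen changed WNT7B by a log2 fold change of -1.14 (standard error 0.17, edgeR adjusted p = 3.62e-05). ATRA raised WNT7B in hyperoxia by a log2 fold change of 1.34 (standard error 0.16, edgeR adjusted p = 2.3e-05). In normoxia the change with ATRA was 0.33 (standard error 0.15, edgeR adjusted p = 0.515) and was not called. All 3 ATRA libraries lay above both vehicle libraries there, but groups of 2 or 3 libraries can separate so without an effect. How many of all genes tested separate in this way was not counted. Among ATRA libraries the oxygen effect was -0.13 (standard error 0.13, edgeR adjusted p = 0.507), and it lay between -0.31 and -0.05 when 1 library was left out.

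The difference between the 2 ATRA effects on WNT7B was 1.01 on the log2 scale (standard error 0.21) and missed the threshold in edgeR, with an unadjusted p of 0.000101 and an adjusted p of 0.058. DESeq2 gave the same difference with an adjusted p of 0.00025, and edgeR with no filter on low counts gave 0.000333. It was also called without replicate 3 of hyperoxia with ATRA (adjusted p = 0.0372). Over all 16 alternatives the difference lay between 0.60 and 1.11 and the adjusted p between 0.00025 and 0.888. Without vehicle, WNT7B measured 180.5 and 145 CPM in hyperoxia and 203 and 239.9 CPM in normoxia. The hyperoxia libraries were again the lower ones, by a log2 fold change of -0.40 (standard error 0.18, edgeR adjusted p = 0.156). Without replicate 1 of hyperoxia it was -0.58 (adjusted p = 0.0814). Whether the oxygen effect differs with and without vehicle was not tested.

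RSPO3 encodes an R-spondin, a secreted protein that strengthens the response to Wnt ligands. It lies on chromosome 6 from 127118671 to 127199481. RSPO3 and DKK1 are the 2 genes of the 10 that were called in the oxygen comparisons with vehicle and with ATRA and in both ATRA comparisons, with the same directions. In the oxygen comparison without vehicle RSPO3 was called and DKK1 was not (log2 fold change 0.30, adjusted p = 0.399). The 4 comparisons with vehicle or ATRA share libraries, so the directions in them are not separate results. The 250 bases before the start of RSPO3 and of DKK1 are shown because the genes moved together in those 4 comparisons. They are from the table of RefSeq promoters used here (GRCh38.p14), in which 7 of the 10 genes were matched (WNT7A, RSPO3, SFRP4, DKK1, LGR4, TLE4 and DACT2). WNT7B, DKK3 and AXIN2 are named only. The RSPO3 window is chr6:127118421-127118670 and the DKK1 window is chr10:52314031-52314280, both on the plus strand and written 5′ to 3′. Capitals mark a TATA motif.
RSPO3: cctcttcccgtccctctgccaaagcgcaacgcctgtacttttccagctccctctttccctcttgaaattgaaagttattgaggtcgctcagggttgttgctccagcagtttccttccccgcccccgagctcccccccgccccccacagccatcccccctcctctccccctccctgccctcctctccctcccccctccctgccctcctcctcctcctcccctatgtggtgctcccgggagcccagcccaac
DKK1: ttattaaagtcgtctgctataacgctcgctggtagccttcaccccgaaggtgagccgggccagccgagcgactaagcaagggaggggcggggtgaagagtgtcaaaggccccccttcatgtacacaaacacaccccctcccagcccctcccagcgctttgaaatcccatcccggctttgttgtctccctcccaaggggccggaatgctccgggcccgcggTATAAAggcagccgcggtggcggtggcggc

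These windows were searched on both strands for the TCF/LEF motif CTTTGAT, the TATA motif TATAAA, the κB motif and the direct repeats 5 and 2 bound by retinoic acid receptors. The only match in the windows of the 7 genes was TATAAA in DKK1, whose first base lies at position -30 from the start. Of 35116 promoters, 10.7% hold TATAAA in a window of this length, 2.26% hold CTTTGAT, 5.21% the κB motif, 0.074% the direct repeat 5 and 0.0313% the direct repeat 2. Since TATAAA in DKK1 was the only match, no overlap of motifs could occur in the windows shown. The TATA motif was added to the search after the sequences had been read. A match describes the letters in the window, and the lack of one says only that they are not in these 250 bases.

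RSPO3 measured 221 and 242 CPM in hyperoxia with vehicle and 112 and 115 CPM in normoxia with vehicle. With ATRA it measured 94, 101 and 108 CPM in hyperoxia, and 65.9, 61 and 50.9 CPM in normoxia. Each of these 4 groups was separate from the other 3, and the levels in hyperoxia with ATRA lay just under those in normoxia with vehicle. With vehicle, oxygen raised RSPO3 by a log2 fold change of 1.05 (standard error 0.15, edgeR adjusted p = 3.62e-05). Among ATRA libraries the oxygen effect was 0.80 (standard error 0.13, edgeR adjusted p = 0.000134). ATRA lowered it by a log2 fold change of -1.19 in hyperoxia (standard error 0.14, edgeR adjusted p = 1.93e-05) and of -0.94 in normoxia (standard error 0.14, edgeR adjusted p = 0.000779). The difference between the ATRA effects was -0.25 (standard error 0.20, adjusted p = 0.853). RSPO3 stayed called in each of the 17 alternatives to each of these 4 comparisons.

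Without vehicle, RSPO3 measured 315 and 236 CPM in hyperoxia and 158 and 120.0 CPM in normoxia. The higher of the hyperoxia values belongs to the library that stood apart. The log2 fold change was 1.03 (standard error 0.18, edgeR adjusted p = 0.00104), and without that library it was 0.78 (standard error 0.19, adjusted p = 0.00878). A fit of these 4 libraries alone gave the same size with an adjusted p of 0.151. The adjusted p lay between 3.78e-06 and 0.151 over the 8 alternatives. The gene LOC105377989 overlaps RSPO3 and held 17 counts, or 0.195% of the counts of RSPO3.

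LGR4, on chromosome 11 from 27365961 to 27472790, encodes a receptor for R-spondins. It measured 46.6 and 47.7 CPM in hyperoxia with vehicle and 255 and 239 CPM in normoxia with vehicle. With ATRA it measured 88, 56.4 and 50.5 CPM in hyperoxia, and 181, 189 and 204 CPM in normoxia. Without vehicle it measured 46.6 and 56.4 CPM in hyperoxia, and 279 and 262 CPM in normoxia. The 7 hyperoxia libraries all lay at or under 88 CPM and the 7 normoxia libraries at or above 181 CPM. The log2 fold change with oxygen was -2.36 with vehicle (standard error 0.20, edgeR adjusted p = 3.72e-08) and -1.51 among ATRA libraries (standard error 0.16, edgeR adjusted p = 5.21e-07). Without vehicle it was also -2.36 (standard error 0.21, edgeR adjusted p = 3.35e-06), and -2.24 without the library that stood apart (adjusted p = 1.89e-06). LGR4 thus fell while RSPO3, which encodes one of its ligands, rose.

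ATRA changed LGR4 by a log2 fold change of 0.49 in hyperoxia (standard error 0.19, edgeR adjusted p = 0.22) and of -0.36 in normoxia (standard error 0.17, edgeR adjusted p = 0.542). Neither was called. The ATRA and vehicle libraries did not overlap at either oxygen level, which groups of this size can show without an effect. The difference between them was 0.85 (standard error 0.25, edgeR adjusted p = 0.341). DESeq2 gave that difference an adjusted p of 0.0399, and edgeR without the filter gave 0.038. Over the 16 alternatives the adjusted p ranged from 0.038 to 1. Leaving out 1 library gave 0.18 to 0.65 for the change in hyperoxia and 0.54 to 1.01 for the difference, both lowest without replicate 1 of hyperoxia with ATRA.

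SFRP4, on chromosome 7 from 37905932 to 37916817, encodes a secreted protein that resembles the ligand-binding part of Frizzled receptors. It measured 2.89 and 8.09 CPM in hyperoxia with vehicle, from 11 and 46 counts, and 8.42 and 16 CPM in normoxia with vehicle, from 24 and 89 counts. In ATRA libraries it measured 27.6, 32.2 and 21.5 CPM in hyperoxia, and 49.8, 34.4 and 42 CPM in normoxia. At both oxygen levels every ATRA library lay above every vehicle library. The spread between the 2 vehicle libraries was wide at each oxygen level. ATRA raised SFRP4 by a log2 fold change of 2.23 in hyperoxia (standard error 0.37, edgeR adjusted p = 0.00129). With 14 libraries in 6 groups the change was 2.26 and not called (adjusted p = 0.0588). With the controls with and without vehicle together the change was 1.52 and not called (adjusted p = 0.12). Without replicate 1 of hyperoxia with vehicle this was 1.73 and no longer called (adjusted p = 0.0668), and without replicate 2 it was 3.20. Over its 17 alternatives the adjusted p lay between 1.51e-08 and 0.12.

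In normoxia ATRA raised SFRP4 by a log2 fold change of 1.74 (standard error 0.34, edgeR adjusted p = 0.00843). With 14 libraries in 6 groups the change was 1.76 and not called (adjusted p = 0.232). It was not called without replicate 1 of normoxia with ATRA (1.61, adjusted p = 0.0585) or without replicate 1 of normoxia with vehicle (1.39, adjusted p = 0.262). The adjusted p lay between 7.21e-06 and 0.262 over the 17 alternatives. The difference between the ATRA effects was 0.49 (standard error 0.49, adjusted p = 0.897). Its sign was not stable: over 16 alternatives it lay between -0.58, with the controls with and without vehicle together, and 1.47, without replicate 2 of hyperoxia with vehicle. It was -0.09 without replicate 2 of normoxia with vehicle and -0.00 without replicate 1 of hyperoxia with vehicle.

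With oxygen, the log2 fold change of SFRP4 was -1.11 with vehicle (standard error 0.41, edgeR adjusted p = 0.0655) and -0.62 with ATRA (standard error 0.28, edgeR adjusted p = 0.127). The first of these was called when replicate 1 of hyperoxia with ATRA (adjusted p = 0.0477), replicate 1 of normoxia with vehicle (-1.48, adjusted p = 0.0352) or replicate 2 of hyperoxia with vehicle (-2.11, adjusted p = 0.0141) was left out. It was also called with no filter on low counts (-1.11, adjusted p = 0.0243) and with only the 2 groups compared (-1.12, adjusted p = 0.0401). In other fits it was smaller: -0.55 without replicate 2 of normoxia with vehicle, and -0.05 with the controls with and without vehicle together. Its adjusted p ranged from 0.0141 to 0.943 over 17 alternatives.

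Without vehicle, SFRP4 measured 19.5 and 6.16 CPM in hyperoxia and 6.32 and 8.5 CPM in normoxia. The groups overlapped, and the 19.5 CPM belong to the library that stood apart. The log2 fold change was 0.87 with that library (standard error 0.54, edgeR adjusted p = 0.295) and -0.24 without it (adjusted p = 0.862). With that library alone in its group it was 1.40 (adjusted p = 0.0143).

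DKK1, on chromosome 10 from 52314281 to 52317657, encodes a secreted inhibitor that binds LRP5 and LRP6, and is itself a known target of beta-catenin. It measured 247 and 221 CPM in hyperoxia with vehicle and 131 and 141 CPM in normoxia with vehicle. With ATRA it measured 92.1, 139.7 and 169 CPM in hyperoxia, and 63, 68.2 and 78.4 CPM in normoxia. Oxygen separated the groups with vehicle and those with ATRA, and the ATRA libraries lay below the vehicle libraries at both oxygen levels. The hyperoxia libraries with ATRA spread over the whole range of normoxia with vehicle. With vehicle, oxygen raised DKK1 by a log2 fold change of 0.80 (standard error 0.20, edgeR adjusted p = 0.00596). It was no longer called without replicate 1 of hyperoxia with vehicle (0.70, adjusted p = 0.0786) or replicate 1 of normoxia with vehicle (0.72, adjusted p = 0.08), and the adjusted p lay between 1.19e-06 and 0.08 over 17 alternatives. Among ATRA libraries the oxygen effect was 0.96 (standard error 0.17, edgeR adjusted p = 0.000259) and was called in each of 17 alternatives.

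ATRA changed DKK1 by a log2 fold change of -0.80 in hyperoxia (standard error 0.18, edgeR adjusted p = 0.0145). With 14 libraries in 6 groups the change was again -0.80 and not called (adjusted p = 0.106). With the controls with and without vehicle together the change was -0.74 and not called (adjusted p = 0.0581). It was not called without replicate 1 (-0.73, adjusted p = 0.252) or replicate 2 (-0.89, adjusted p = 0.0835) of hyperoxia with vehicle, and its adjusted p lay between 6.26e-06 and 0.252 over 17 alternatives. In normoxia the change was -0.96 (standard error 0.18, edgeR adjusted p = 0.0069). With 14 libraries in 6 groups it was again -0.96 and lost the call (adjusted p = 0.0702). That call was lost without replicate 1 of normoxia with ATRA (-0.89, adjusted p = 0.0512), or without replicate 1 (-1.02, adjusted p = 0.0555) or replicate 2 (-0.91, adjusted p = 0.133) of normoxia with vehicle. Its adjusted p lay between 1.6e-07 and 0.133. The difference between the ATRA effects was 0.15 (standard error 0.26, adjusted p = 0.949). Without vehicle, DKK1 measured 173 and 247 CPM in hyperoxia and 157 and 192 CPM in normoxia. These groups overlapped, and the log2 fold change was 0.30 (standard error 0.23, edgeR adjusted p = 0.399), or 0.52 without the library that stood apart (adjusted p = 0.187). With that library alone in its group it was -0.01 (adjusted p = 0.973).

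DKK3, on chromosome 11 from 11963036 to 12009745, encodes a relative of DKK1 whose effect on Wnt signalling varies with the cell. It measured 18.4 and 13.7 CPM in hyperoxia with vehicle, 22.8 and 26.5 CPM in normoxia with vehicle, and between 10.6 and 23.1 CPM in the 6 ATRA libraries. It was not called in any of the comparisons in the edgeR fits of all libraries. With oxygen its log2 fold change was -0.60 with vehicle (standard error 0.35, edgeR adjusted p = 0.275). Without vehicle it measured 0.39 and 19.1 CPM in hyperoxia and 20 and 13.4 CPM in normoxia. The 0.39 CPM, 2 counts, belong to the library that stood apart. The log2 fold change was -0.81 with that library (standard error 0.83, edgeR adjusted p = 0.536), and 0.21 without it (adjusted p = 0.838). With that library alone in its group DKK3 was called lower (adjusted p = 6.1e-06).

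AXIN2, on chromosome 17 from 65528563 to 65561648, encodes a scaffold of the complex that destroys beta-catenin, and its transcript is widely used as a readout of beta-catenin activity. It had few counts, from 0 to 39 per library. In hyperoxia with vehicle it measured 2.63 and 3.52 CPM and in normoxia with vehicle 5.96 and 6.3 CPM. With ATRA it measured 3.55, 6.82 and 5.84 CPM in hyperoxia, and 9.49, 10.0 and 8.18 CPM in normoxia. The hyperoxia libraries lay below the normoxia libraries both with vehicle and with ATRA, which groups of this size can show without an effect. The tests did not call AXIN2: the log2 fold change with oxygen was -0.95 with vehicle (standard error 0.59, edgeR adjusted p = 0.316) and -0.76 with ATRA (standard error 0.47, edgeR adjusted p = 0.264). Without vehicle it measured 0 and 2.27 CPM in hyperoxia, from 0 and 7 counts, and 7.71 and 8.26 CPM in normoxia.

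The count of 0 for AXIN2 belongs to the library that stood apart. The log2 fold change without vehicle was -2.91 (standard error 1.01, edgeR adjusted p = 0.0635), and -1.78 without that library (adjusted p = 0.155). With that library alone in its group AXIN2 was called (adjusted p = 9.24e-05), as it was by DESeq2 (-3.00, adjusted p = 0.00551) and by edgeR without the filter (-2.94, adjusted p = 0.0408). Over the 8 alternatives the adjusted p lay between 9.24e-05 and 0.559. When the libraries with and without vehicle were taken as 1 control group per oxygen level and the library that stood apart was left out, the oxygen effect was -1.28 (adjusted p = 0.0189). That fit was chosen after seeing the data, and it alone of 17 alternatives called AXIN2 with vehicle. Over these alternatives the log2 fold change lay between -1.71 and -0.80. The adjusted p of the effect with vehicle ranged from 0.0189 to 0.675 over its 17 alternatives.

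DACT2, on chromosome 6 from 168292830 to 168319777, encodes a cytoplasmic protein that binds Dishevelled, a carrier of the Wnt signal. In normoxia it had 41, 30 and 30 counts with ATRA, 1 and 12 counts with vehicle, and 2 and 9 counts without vehicle. In hyperoxia it had 1 and 0 counts with vehicle and no count in the 3 ATRA libraries or the 2 without vehicle. Every hyperoxia library was at or below 1 count, and the highest values were those of normoxia with ATRA, at 10.8, 9.39 and 7.92 CPM. Among ATRA libraries DACT2 was at least 11.9-fold lower in hyperoxia, against a floor of 3 counts per library, and edgeR called it (adjusted p = 0.000216, between 1.03e-07 and 0.00511 over 17 alternatives). With vehicle, 12 of the 13 counts in normoxia came from replicate 2. The fitted log2 fold change was -3.30, and -5.53 to -1.43 when 1 library was left out. The ratio of normoxia to hyperoxia there was 14.7 from 13 and 1 counts, with a 95% exact interval of 2.2 to 623. The gene was not called (edgeR adjusted p = 0.133). It was called with the controls with and without vehicle together (adjusted p = 0.0221), and with these controls without the library that stood apart (0.0246). The adjusted p lay between 0.0221 and 0.78 over 16 alternatives. Without vehicle the mean of normoxia was 1.66 times the same floor. Replicate 1 of normoxia, with 2 counts, lay under that floor, so no bound on the fold change is given. DACT2 was not called there (edgeR adjusted p = 0.105, and 0.294 without the library that stood apart).

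In normoxia, ATRA changed DACT2 by a log2 fold change of 2.75 (standard error 0.97, edgeR adjusted p = 0.29). Leaving out 1 library gave 2.10 to 4.62. All 3 ATRA libraries lay above both vehicle libraries, which measured 0.351 and 2.16 CPM. Groups of this size can separate so without an effect. The change was called in a fit of these 2 groups alone (2.69, adjusted p = 0.0379), and with vehicle and no vehicle as 1 control group without the library that stood apart (2.81, adjusted p = 0.0288). The adjusted p ranged from 0.0288 to 1 over 17 alternatives.

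TLE4, on chromosome 9 from 79571965 to 79726882, encodes a nuclear co-repressor that binds TCF/LEF factors when beta-catenin is absent. It measured 156 and 124 CPM in hyperoxia with vehicle and 24.9 and 26.3 CPM in normoxia with vehicle. With ATRA it measured 40.5, 76.1 and 70.3 CPM in hyperoxia, and 21.1, 33.2 and 20.9 CPM in normoxia. Without vehicle it measured 107 and 126 CPM in hyperoxia and 32.2 and 26.2 CPM in normoxia. All hyperoxia libraries lay above all normoxia libraries, and within hyperoxia the ATRA libraries were the lowest. Oxygen raised TLE4 by a log2 fold change of 2.47 with vehicle (standard error 0.27, edgeR adjusted p = 1e-06) and of 1.34 with ATRA (standard error 0.23, edgeR adjusted p = 0.000168). Without vehicle it was 2.03 (standard error 0.29, edgeR adjusted p = 0.000221), and 2.13 without the library that stood apart (adjusted p = 2.41e-05). A fit of these 4 libraries alone gave an adjusted p of 0.0527, the highest over 8 alternatives, the lowest being 5.52e-13.

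In hyperoxia, ATRA changed TLE4 by a log2 fold change of -1.17 (standard error 0.22, edgeR adjusted p = 0.00448). It was not called without replicate 1 of hyperoxia with vehicle (-1.0, adjusted p = 0.177), and over 17 alternatives its adjusted p lay between 4.62e-08 and 0.177. In normoxia the change was -0.04 (standard error 0.26, edgeR adjusted p = 0.991) and the groups overlapped. Its sign turned without replicate 1 (0.07) or replicate 3 (0.08) of normoxia with ATRA. The difference between these effects was -1.13 on the log2 scale (standard error 0.35), with an unadjusted p of 0.00385 and an adjusted p of 0.354 in edgeR. edgeR with no filter called it (adjusted p = 0.0255), and over the 16 alternatives the adjusted p ranged from 0.0255 to 1.

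**Figure D4:**
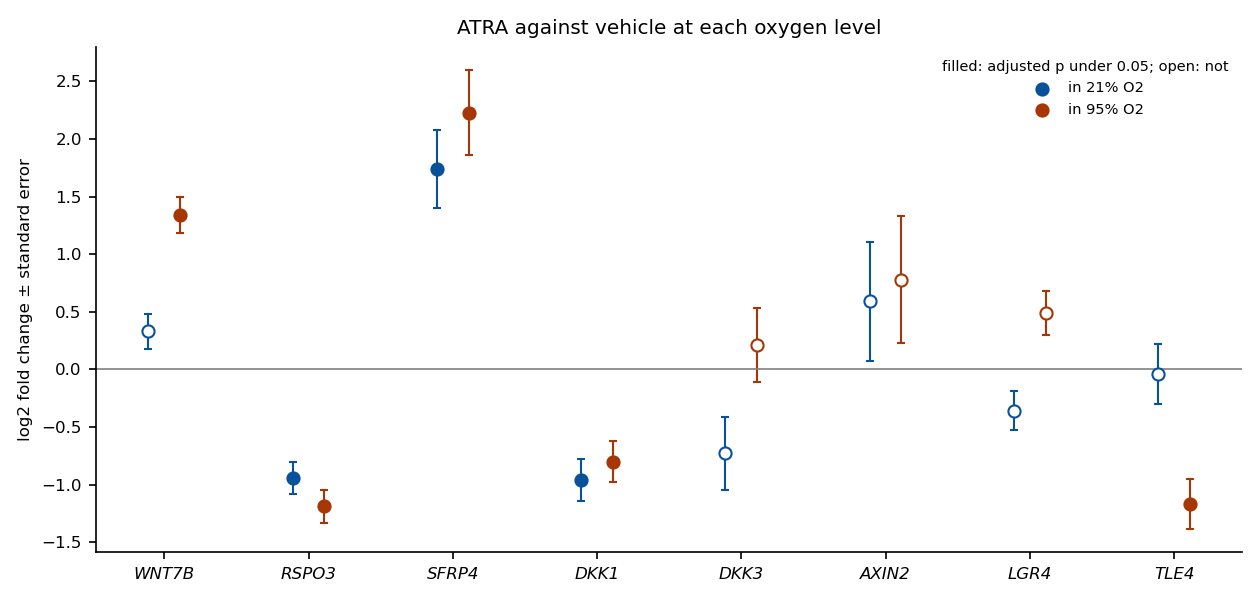
Log2 fold change (± standard error) of 8 genes with ATRA against vehicle in 21% and in 95% oxygen; filled points have an adjusted p under 0.05. RSPO3, SFRP4 and DKK1 are filled at both oxygen levels, WNT7B (1.34) and TLE4 (-1.17) in 95% oxygen.

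The plot of ATRA effects sets the 2 oxygen levels side by side. RSPO3 and DKK1 lie below 0 and SFRP4 above 0 at both. The 2 points of a gene differ by 1.01 for WNT7B, -1.13 for TLE4, 0.94 for DKK3 and 0.85 for LGR4. These differences missed the threshold in edgeR with the filter and all 10 libraries. Those of WNT7B, TLE4 and LGR4 passed it in edgeR with no filter (adjusted p = 0.000333, 0.0255 and 0.038). Over 16 alternatives the adjusted p reached 0.888 for WNT7B and 1 for the other 3 genes, and the lowest were 0.00025, 0.0255, 0.33 and 0.038 in the order of the differences.

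The rest of the pathway was read from a list of 108 Wnt genes in 8 roles, of which 98 are not among the 10. All 108 are in the files, and 70 were tested. With vehicle, oxygen raised 10 of the 70 and lowered 9 (27.1%), while 17.5% of all genes tested were called in either direction. The median log2 fold change was 0.15 over the list and 0.01 over all genes. Without replicate 1 of hyperoxia with vehicle or replicate 2 of normoxia with vehicle, 10 genes of the list were called in all, in place of 19, and 1433 or 1523 of all genes, in place of 2616. Leaving the 10 genes aside, 7 of 61 rose and 7 fell (23%). Among ATRA libraries oxygen raised 8 of the 70 and lowered 7 (21.4%), near the 22.7% of all genes. Among the other 61 this was 5 and 5 (16.4%).

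With ATRA in hyperoxia, 3 of the 70 rose and 3 fell (8.57%), where 2.21% of all genes were called. All but LRP5 are among the 10 genes, and without them 1 of 61 was called (1.64%). In normoxia ATRA raised 1 and lowered 2 of the 70 (4.29%), where 1.25% of all genes were called. All 3 are among the 10. These counts moved with single libraries: in hyperoxia 2 of the list and 83 of all genes were called without replicate 1 of hyperoxia with vehicle. In normoxia 1 of the list was called without replicate 1 of normoxia with ATRA or of normoxia with vehicle, and 121 or 56 of all genes.

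Without vehicle, oxygen raised 7 and lowered 3 of 72 (13.9%), where 15.2% of all genes were called. Without the library that stood apart 7 of the list and 1733 of all genes were called, and with it alone in its group 35 of the list and 7364 of all genes. Without replicate 1 of normoxia these were 5 and 969. In these 3 fits the number of calls in the list and that over all genes rose or fell together. The median log2 fold change in this comparison was 0.16 over the list and -0.10 over all genes.

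**Figure D5:**
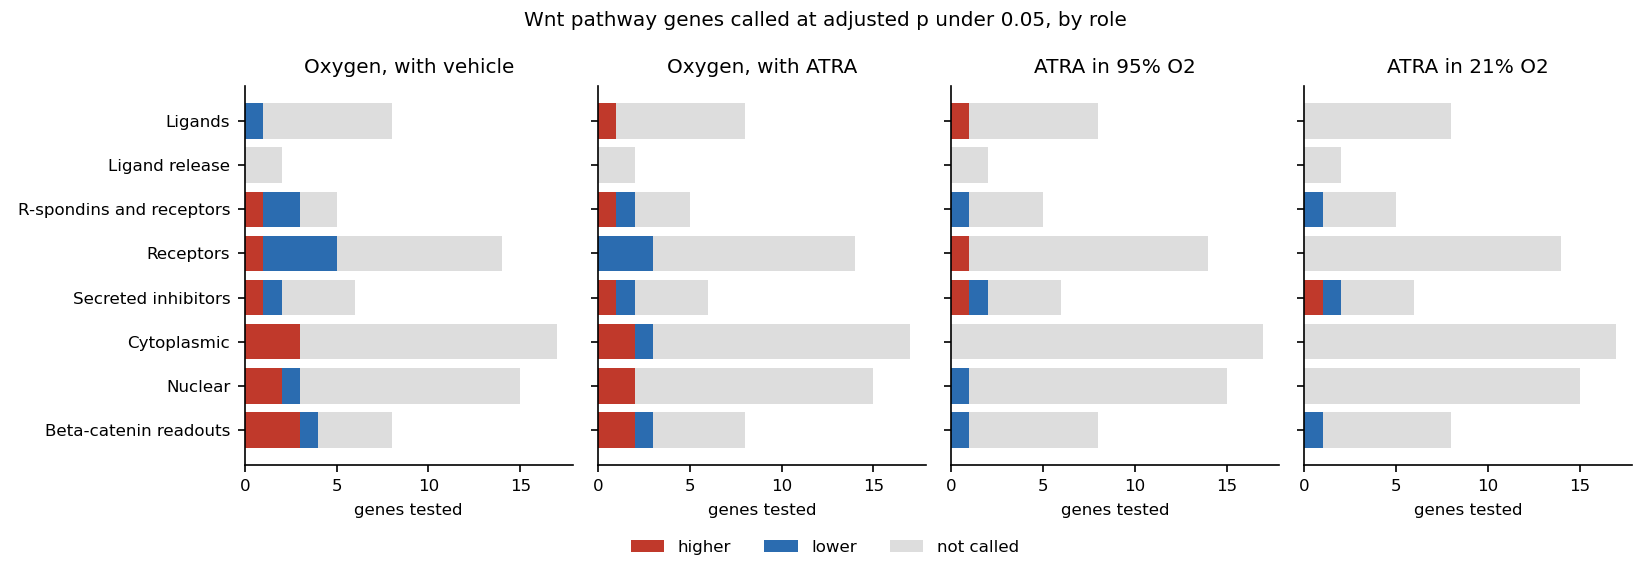
Number of genes of the Wnt list tested in each of 8 roles, with those called higher, called lower and not called, in 4 comparisons. With vehicle, oxygen lowered 4 of 14 receptors and raised 1 (35.7% called, against 17.5% of all genes), and with ATRA it lowered 3 (21.4%, against 22.7%).

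The plot of the list by role shows where the calls fall. A gene can count in 2 roles, since readouts such as AXIN2 and DKK1 also act in the pathway. With vehicle, 3 of 17 cytoplasmic genes rose with oxygen (17.6%), near the 17.5% of all genes called in either direction. They were CSNK1A1, GSK3B and TNKS. TNKS rose by 0.57 on the log2 scale (edgeR adjusted p = 0.0264), and was not called with ATRA (0.0618) or without vehicle (0.688). Of 8 readouts of beta-catenin signalling 3 rose (CCND1, MYC and DKK1) and 1 fell (50%). RNF43 was the readout that fell (log2 fold change -1.33, edgeR adjusted p = 0.0148), and MYC rose by 0.58 (0.0217). AXIN2, TCF7, BAMBI and ZNRF3 also lay below 0 and were not called. Neither RNF43 nor MYC was called with ATRA or without vehicle. The readouts had a median log2 fold change of -0.26. With ATRA, 2 of the 8 rose with oxygen and 1 fell (37.5%, against 22.7% of all genes), and their median was 0.20. Without vehicle their median was -0.07 over 9 readouts tested, and the smallest adjusted p in the edgeR fit of 14 libraries with the filter was 0.0635, that of AXIN2, whose alternatives are given with that gene.

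Among the genes outside the 10 that changed with oxygen among vehicle libraries, named by their p-value, were 2 kinases. CSNK1A1, a kinase of the complex that destroys beta-catenin, averaged 237 ± 1.62 CPM in hyperoxia and 125 ± 16.3 CPM in normoxia (SD, n = 2 each). Its log2 fold change was 0.96 (standard error 0.14, edgeR adjusted p = 4.13e-05). GSK3B, another kinase of that complex, averaged 196 ± 10.7 and 113 ± 0.801 CPM, a log2 fold change of 0.82 (standard error 0.16, edgeR adjusted p = 0.000668). Both kinases rose in all 3 oxygen comparisons: among ATRA libraries by 0.92 and 0.63, and without vehicle by 0.80 and 0.90. In the comparisons with vehicle and with ATRA they were called in each of 17 alternatives. Without vehicle they were called in 7 of 8 alternatives, with changes of 0.83 and 0.86 without the library that stood apart. With only the 2 groups compared that call was lost for both kinases (adjusted p = 0.13), the lowest of the alternatives being 5.44e-07 and 6.97e-06. Other genes of that complex were not called with vehicle: AXIN1 (adjusted p = 0.186), APC (0.467), APC2 (0.706), GSK3A (0.828) and BTRC (0.769).

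The co-receptors LRP5 and LRP6 fell with oxygen among vehicle libraries, while the receptor gene ROR1 rose (0.78 on the log2 scale, adjusted p = 0.0151). ROR1 was the 1 receptor of 14 called higher there, where 4 were called lower (LRP5, LRP6, FZD2 and FZD8). FZD8 changed by -1.57 (adjusted p = 0.00986), and was not called with ATRA (-0.81, 0.0868) or without vehicle (-0.16, 0.849). Without vehicle ROR1 was at 0.63 and not called (adjusted p = 0.0822), and with ATRA it was at 0.19. LRP5 averaged 65.3 ± 8.65 CPM in hyperoxia with vehicle and 126 ± 27.5 CPM in normoxia with vehicle (SD, n = 2 each). Its log2 fold change was -0.93 (standard error 0.19, edgeR adjusted p = 0.0015). LRP6 averaged 121 ± 2 and 188 ± 18.3 CPM, a log2 fold change of -0.61 (standard error 0.15, edgeR adjusted p = 0.00511). Leaving out replicate 2 of normoxia with vehicle ended the call of LRP5 (adjusted p = 0.0598) and of LRP6 (0.084), and leaving out replicate 1 of hyperoxia with vehicle that of LRP6 (0.0507). With the controls with and without vehicle together the change of LRP5 was -0.50 and not called (adjusted p = 0.108). Over 17 alternatives the adjusted p lay between 3.87e-06 and 0.108 for LRP5 and between 2.98e-05 and 0.084 for LRP6. The fall of LRP5 was not called in the other oxygen comparisons, at -0.27 with ATRA (adjusted p = 0.224) and -0.18 without vehicle (0.647). LRP6 was called with ATRA (-0.51, adjusted p = 0.00388) and not without vehicle (-0.39, 0.137).

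Other parts of the pathway changed with oxygen among vehicle libraries too. The receptor gene FZD2 changed by -1.0 (adjusted p = 0.00227), the secreted inhibitor SFRP1 by -1.10 (adjusted p = 0.000486; 0.103 and not called with 14 libraries in 6 groups, the highest of 17 alternatives, the lowest being 1.18e-05) and the nuclear co-activator BCL9 by -1.14 (adjusted p = 0.00769). BCL9 was not called without replicate 1 of normoxia with vehicle (adjusted p = 0.0778) or replicate 2 of hyperoxia with vehicle (0.138), and its adjusted p lay between 0.0003 and 0.138 over 17 alternatives. CCND1, a cyclin and a readout of beta-catenin signalling, rose by 0.51 (standard error 0.13, edgeR adjusted p = 0.00798). That call ended without replicate 1 of hyperoxia with vehicle (adjusted p = 0.147), or replicate 1 (0.0628) or replicate 2 (0.113) of normoxia with vehicle, and its adjusted p lay between 0.000208 and 0.147.

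LRP5 was the gene outside the 10 that ATRA raised in hyperoxia, to 107 ± 4.04 CPM (SD, n = 3). The rise was 0.71 on the log2 scale (standard error 0.18, edgeR adjusted p = 0.0371). The call did not hold without replicate 2 (adjusted p = 0.0976) or 3 (0.0637) of hyperoxia with ATRA, replicate 1 of normoxia with ATRA (0.0551), or replicate 1 (0.559) or 2 (0.15) of hyperoxia with vehicle. It was also lost with 14 libraries in 6 groups (0.71, adjusted p = 0.271). With the controls with and without vehicle together the change was 0.21 (0.748), and 0.49 (0.18) when the library that stood apart was left out of these. Its adjusted p ranged from 0.00231 to 0.748 over 17 alternatives.

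Among ATRA libraries oxygen raised CCND1 by 0.99 (adjusted p = 6.56e-07) and BCL9L by 0.51 (adjusted p = 0.00558) on the log2 scale. It changed BAMBI by -1.15 (adjusted p = 0.000385), FZD4 by -1.50 (adjusted p = 0.00551), LRP6 by -0.51 (adjusted p = 0.00388) and SFRP1 by -0.59 (adjusted p = 0.0116). FZD4 was at -0.90 and not called without replicate 2 of normoxia with ATRA (adjusted p = 0.0815, the highest of 17 alternatives, the lowest being 7.9e-05). The call of FZD4 was also lost with the controls with and without vehicle together (-1.55, adjusted p = 0.0623). SFRP1 lost its call with 14 libraries in 6 groups (adjusted p = 0.278) and with the controls with and without vehicle together (0.222), the lowest of its 17 alternatives being 0.0102. Of the 61 genes outside the 10, 6 were called in the same direction in this comparison and in that with vehicle, which share no library: CCND1, CSNK1A1, FZD2, GSK3B, LRP6 and SFRP1. These 6 are 42.9% of the 14 called with vehicle and 60% of the 10 called with ATRA. Over all genes tested, 1832 were called in the same direction in both, 70% of the first list and 54% of the second.

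Without vehicle, 5 further genes outside the 10 were called beside the 2 kinases, and each of these calls ended without some single library. APC2 changed by 2.22 (adjusted p = 0.0116), and by 1.11 without the library that stood apart (0.161) and 1.72 without replicate 1 of normoxia (0.167). CTBP2 changed by 0.55 (adjusted p = 0.026), and by 0.32 without the library that stood apart (0.319), 0.58 without replicate 1 of normoxia (0.109) and 0.43 without its replicate 2 (0.201). FZD4 changed by -2.05 (adjusted p = 0.0287), and by -1.64 without the library that stood apart (0.102) and -1.52 without replicate 1 of normoxia (0.259). With vehicle FZD4 was at -0.02 (0.982). All these values are on the log2 scale, with the adjusted p in brackets.

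SFRP1 changed by -1.27 without vehicle (adjusted p = 0.0446), and by -0.55 without the library that stood apart (0.213), -1.08 without replicate 1 of normoxia (0.254) and -1.49 without its replicate 2 (0.0683). BCL9L changed by 0.55 (adjusted p = 0.0464), and by 0.36 without replicate 2 of hyperoxia (0.142), 0.35 without replicate 1 of normoxia (0.408) and 0.70 without its replicate 2 (0.0619). Over 8 alternatives the highest adjusted p was 0.273 for APC2, 0.33 for CTBP2, 0.291 for FZD4, 0.463 for SFRP1 and 0.408 for BCL9L. The lowest was 1.22e-05, 0.00292, 0.00226, 4.22e-07 and 0.0155 for the same genes.

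For each of the 7 genes that were called at least once, the 3 genes most like it were found among the 14957 tested. Likeness was the smallest mean absolute difference in log2 CPM over the 14 libraries, after centring each gene on its own mean. WNT7B was most like HSPA2 (0.15), CLMN (0.16) and PDLIM1 (0.19), where the median over all genes was 0.60. RSPO3 was most like KYNU (0.18), RAB3B (0.21) and NAMPT (0.21), where the median was 0.76. LGR4 was most like MTUS1 (0.17), AGR2 (0.22) and PDLIM5 (0.23), where the median was 1.05.

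DKK1 was most like IER3 (0.18), NR0B1 (0.22) and NAMPT (0.22), with a median of 0.68, so that NAMPT is near both RSPO3 and DKK1. TLE4 was most like ETS1 (0.16), EREG (0.19) and FRMD6 (0.20), with a median of 1.04. SFRP4 was most like DHRS3 (0.42), IFFO2 (0.45) and ADAMTS15 (0.46), with a median of 1.11, and DHRS3 is among the genes used to check the ATRA labels. DACT2, with many counts of 0, had no close neighbour: TRIM31-AS1 (0.62), MCM8-AS1 (0.63) and TF (0.64) came nearest, with a median of 1.55. None of these genes is in the Wnt list. Without the library that stood apart, over 13 libraries, the 3 genes were the same for RSPO3 and TLE4. For WNT7B, DKK1, LGR4 and DACT2 2 of the 3 were the same, and for SFRP4 1 was (DHRS3). Since the groups shape the pattern of every such gene, the values describe likeness over these libraries and nothing more.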

How the data were processed

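RNA-seq counts from 15 A549 libraries were used, 14 of them in 6 groups. The values are the counts per gene symbol that the authors deposited, without normalization, in 43388 genes per library. The labels name Trimmomatic 0.38, HISAT2 and HTSeq with hg38. The annotation release and the strand setting of the counting are not given in the sources used here. Between 75.2% and 78.4% of the reads counted in a library were not on genes and were left out of library sizes. Libraries had 2642377 to 5605072 counts on genes.

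Tests were run in edgeR 4.0.16 (R 4.3.3). The filter on low counts was filterByExpr (minimum count 10, minimum total count 15), scaling was by TMM, and the 10 libraries with vehicle or ATRA entered a quasi-likelihood fit of 4 groups. For oxygen without vehicle, 14 libraries entered a fit of 6 groups. All p-values are two-sided and adjusted by Benjamini and Hochberg over all genes tested, and a gene was called at an adjusted p under 0.05. The standard error given with an edgeR log2 fold change is its absolute size divided by the square root of the F statistic. It is thus derived from the same test as the p-value and is not a separate measure. CPM used library sizes scaled by TMM over 15 libraries, and log2 CPM a prior count of 2. Python 3.11.15 with pandas 2.3.3 and matplotlib 3.10.9 made the tables and plots. The procedure was tested on simulated data, and the criterion for passing was reset after a first criterion had failed. Changes in genes with few counts were often missed there, so that a change of AXIN2 or DACT2 that was not called says little. Replicates are numbered in the order of the library names, since the labels give no replicate numbers.

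Transcript lengths are those of MANE Select in GENCODE 44, and positions and promoters are from RefSeq for GRCh38.p14. No fold change is given where both groups were at or under 3 counts per library. Against a group at 0 it is a lower bound, given where each library of the other group had more than 3 counts.

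The 10 genes and the gene lists were chosen with earlier results of these data known. The genes named are these 10, up to 8 other genes of the Wnt list per comparison with the smallest p among those called, the genes that check the labels, the cell type markers, and the 3 genes most like each of the 10 that was called. LOC105377989, ROR1, and the kinases' partners AXIN1, APC, GSK3A and BTRC were named after their values were seen. So were FZD8, TNKS, MYC, RNF43, TCF7 and ZNRF3.

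The alternatives were DESeq2 1.42.0, edgeR with RLE size factors, no filter, only the 2 groups compared, 14 libraries in 6 groups, controls with and without vehicle together, and leaving out each library in turn. The joint controls without the library that stood apart, the most alike genes without it, and the TATA motif were chosen after seeing the data. Where a group was left with 1 library, that library is assumed to vary like those of the other groups. The library with contradictory labels entered no comparison.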

Additional observations from a re-analysis of the deposited data

Results flagged for a closer look

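A library whose title names hyperoxia and whose treatment label names adipogenic differentiation was placed in no group. RSPO3 measured 255 CPM in it, above the 4 normoxia libraries without ATRA, of which the highest had 158 CPM. DKK1 measured 215 CPM, where the highest of these 4 had 192 CPM. TLE4 measured 123 CPM, where the highest had 32.2 CPM. These values stood out because they lie above the controls in a library that no comparison used. In the 4 hyperoxia libraries without ATRA the same genes ranged from 221 to 315 CPM, from 173 to 247 CPM and from 107 to 156 CPM. Which treatment the library received was not tested.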

How the results depend on the processing

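Of the 10 genes, 21 results were called. Over their 330 alternatives 311 kept direction and call, 19 kept direction and lost the call, and 0 reversed, and 13 results were called in every alternative run. Of 24 results of other Wnt genes, 9 were called in every alternative, and of their 345 alternatives 43 lost the call and 0 reversed. SFRP4 and DKK1 lost calls outside the single-library fits too. For ATRA in hyperoxia the adjusted p was 0.0588 and 0.106 with 14 libraries in 6 groups, and 0.12 and 0.0581 with the controls together. For ATRA in normoxia it was 0.232 and 0.0702 with 14 libraries. For oxygen without vehicle, RSPO3 and TLE4 lost the call with only the 2 groups compared (0.151 and 0.0527). Groups of 2 or 3 libraries and 2642377 counts in the shallowest limit what can be called, and AXIN2, DACT2 and WNT7A are near or under the floor. No paired analysis was run, since the labels carry no shared replicate numbers. Whether the order of the library names reflects sets of libraries prepared together was not tested.

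The counts of genes called that moved by more than 1.5 times follow, and the cause was not tested. With 14 libraries in 6 groups, 1420 genes were called for oxygen with vehicle, 116 for ATRA in hyperoxia, 70 for ATRA in normoxia, 1975 for oxygen with ATRA and 4 for the interaction. With only the 2 groups compared, 4665 were called for oxygen with vehicle and 58 for oxygen without vehicle. With no filter, 522 were called for ATRA in hyperoxia, 300 for ATRA in normoxia and 91 for the interaction, and DESeq2 called 103 for the interaction. With the controls together, 182 were called for ATRA in hyperoxia, 2073 for oxygen with ATRA and 5 for the interaction. With the controls together but without the library that stood apart, chosen after seeing the data, 4553 were called for oxygen with vehicle and 364 for ATRA in normoxia. Leaving out 1 library gave 1386 to 3175 for oxygen with vehicle, 83 to 449 for ATRA in hyperoxia, 56 to 267 for ATRA in normoxia, 4 to 28 for the interaction and 969 to 7364 for oxygen without vehicle.

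Of the 9 genes tested, 14 libraries in 6 groups and the controls together each left 3 called for ATRA in hyperoxia, and the first left 1 for ATRA in normoxia. For the interaction DESeq2 called 2 and edgeR with no filter 3, and for oxygen without vehicle the 2 groups alone gave 1. Leaving out 1 library gave 2 to 5 called for ATRA in hyperoxia, 1 to 3 for ATRA in normoxia, 0 to 1 for the interaction and 3 to 6 for oxygen without vehicle.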

Other observations

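In the library with contradictory labels, LGR4 measured 68.8 CPM, WNT7B 146 CPM, DKK3 16.3 CPM, SFRP4 6.75 CPM and AXIN2 2.4 CPM. WNT7A and DACT2 had no count in it. LGR4 lay between the 4 hyperoxia libraries without ATRA (46.6 to 56.4 CPM) and the 4 normoxia libraries without ATRA (239 to 279 CPM). Of 5 adipocyte markers, ADIPOQ, FABP4, PLIN1 and LPL had no count in this library, and CIDEC had 3 counts. In the 14 assigned libraries CIDEC had up to 31 counts.

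Replicates of a group were compared with counting noise on genes with a mean of at least 20 counts. The median squared difference, in units of the counting variance, was 11.3 for the pair in hyperoxia without vehicle and lay between 1.26 and 3.89 for the other 9 pairs. The highest of these, 3.69 and 3.89, were the pairs with replicate 1 of hyperoxia with ATRA. No 2 libraries of a group were identical.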
